A study of Rattus norvegicus with 5 samples.

Results

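The genes described here are 8 chemokines (Cxcl1, Cxcl2, Cxcl9, Cxcl10, Cxcl12, Ccl2, Ccl20 and Cx3cl1) and the adhesion molecules Icam1 and Vcam1. They were chosen by gene name, together with every non-control spot of the rat array that carries one of those names. All 10 genes were found, on 12 probes and 30 spots, among 35654 genes or transcripts on the array. The samples were Fao cells, an established rat hepatoma line that keeps many hepatocyte functions, exposed to 10 nM insulin for 0, 15, 30, 45 or 60 min, with 1 one-colour array per time. Before that, the cells of every sample, including that at 0 min, had been grown in 10% serum for 2 days and then starved for 16 h in medium that held the synthetic glucocorticoid dexamethasone at 10 nM. A time course of cells kept without insulin was not analysed here, so time in culture and time in insulin cannot be told apart. The labels do not say whether the 5 samples came from separate cultures. No time has a replicate, and each value below therefore comes from a single array with no spread between cultures. In bulk RNA, fewer cells that express a gene and less RNA per cell cannot be told apart.

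Chemokines are small secreted proteins that draw leukocytes along a gradient by acting on G protein-coupled receptors. Cxcl1 and Cxcl2 act on Cxcr2 and recruit neutrophils, Cxcl9 and Cxcl10 act on Cxcr3 of activated T cells and are known as interferon-induced genes, Ccl2 recruits monocytes through Ccr2, Ccl20 acts on Ccr6, and Cxcl12 acts on Cxcr4. Cx3cl1 (fractalkine) is made as a membrane-bound protein with a chemokine domain on a mucin stalk, and it binds Cx3cr1. Icam1 and Vcam1 are cell-surface proteins that hold leukocytes through integrins. In liver, hepatocytes can make several of these proteins during inflammation, and many of the genes are textbook targets of NF-kB, a transcription factor that IkB proteins hold in the cytoplasm. Glucocorticoids such as dexamethasone are known to dampen many NF-kB targets.

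The promoters of the 4 genes that reached a 2-fold change are shown, since NF-kB sites near the start are a well-known feature of such genes. Each runs from 250 bases before to 50 bases after the start of the RefSeq gene on assembly GRCr8, read 5′ to 3′ on the strand of the gene. Capitals mark matches to the kappaB motif, including pairs of matches that overlap by all but 1 base. The windows lie at chr14:17479272-17479571 on the minus strand for Cxcl1, chr14:17467206-17467505 on the minus strand for Cxcl2, chr14:15988816-15989115 on the plus strand for Cxcl10 and chr8:27829595-27829894 on the plus strand for Icam1.
Cxcl1: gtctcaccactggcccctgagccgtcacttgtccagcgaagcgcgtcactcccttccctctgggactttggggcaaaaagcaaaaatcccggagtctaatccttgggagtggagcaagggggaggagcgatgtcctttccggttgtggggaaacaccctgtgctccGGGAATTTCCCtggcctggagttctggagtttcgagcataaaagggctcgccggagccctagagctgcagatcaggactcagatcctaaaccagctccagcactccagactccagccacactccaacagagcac
Cxcl2: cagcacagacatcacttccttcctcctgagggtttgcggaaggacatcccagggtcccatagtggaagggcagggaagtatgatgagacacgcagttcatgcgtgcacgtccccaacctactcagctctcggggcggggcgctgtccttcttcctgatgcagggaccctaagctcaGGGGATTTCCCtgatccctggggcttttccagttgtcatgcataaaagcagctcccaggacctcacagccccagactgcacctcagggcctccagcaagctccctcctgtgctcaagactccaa
Cxcl10: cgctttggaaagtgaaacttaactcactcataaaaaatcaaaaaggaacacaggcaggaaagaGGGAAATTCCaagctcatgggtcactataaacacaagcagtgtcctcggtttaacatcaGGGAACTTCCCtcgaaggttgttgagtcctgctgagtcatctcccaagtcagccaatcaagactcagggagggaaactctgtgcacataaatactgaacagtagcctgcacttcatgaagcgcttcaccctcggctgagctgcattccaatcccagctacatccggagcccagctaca
Icam1: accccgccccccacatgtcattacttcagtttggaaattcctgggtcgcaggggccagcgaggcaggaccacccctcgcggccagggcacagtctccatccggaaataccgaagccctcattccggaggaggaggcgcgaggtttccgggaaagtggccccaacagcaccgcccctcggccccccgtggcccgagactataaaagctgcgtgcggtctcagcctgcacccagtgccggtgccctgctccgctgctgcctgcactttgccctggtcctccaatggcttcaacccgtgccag
The table of promoters held 9 of the 10 genes, all but Ccl2. On either strand, the kappaB motif was present in 5 of these 9 windows, against 7.60% of 27457 rat promoters of the same length. The matches began 84 bases before the start in Cxcl1, 74 in Cxcl2, 187 and 128 in Cxcl10, 89 in Ccl20 and 93 in Vcam1. The windows of Icam1, Cx3cl1, Cxcl9 and Cxcl12 held no match to the 10-letter pattern searched. Looser forms of the kappaB site were not searched, so a window without a match may still hold one. The interferon-sensitive motif GAAANNGAA was in the windows of Cxcl10, 243 bases before the start, and Vcam1, against 9.5% of all promoters. The AP-1 motif TGANTCA was in that of Cxcl10 alone, 96 bases before the start, against 7.33% of all promoters, and the cyclic AMP response motif TGACGTCA was in 0 of 9, against 1.91%. A match describes the letters only. Ccl20 and Vcam1 hold the kappaB motif as Cxcl1, Cxcl2 and Cxcl10 do, but their probes were not well above background on any array.

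Levels below are log2 values of a probe's processed signal divided by the 75th percentile of that array, so 0 is the level of a fairly bright spot, and a difference of 1 is 2-fold. Levels are compared between times for the same probe and not between probes. A spot counts as measured where the scanner software called it well above background. By that call, 20532 of the 35654 genes were measured on at least 1 array and 16707 on all 5. The 0 to 45 min arrays lay side by side on 1 slide in order of time, and the 60 min array lay on a second slide with its own scan and a higher 75th percentile (479.3 units, against 253.5 to 300.2 units on the other 4). The slide and the 60 min time cannot be told apart. All 8 hepatocyte markers were measured on every array, with a summed level of 837 to 936 times the 75th percentile. Leukocytes and endothelium also express many of these genes. Of 6 macrophage and leukocyte markers, Cd14, Lyz2 and Cd68 were measured on all 5 arrays, Csf1r on 3, and Adgre1 and Cd163 on none, with a summed level of 2.08 to 2.51. Of 6 endothelial markers, Cdh5 was measured on all 5 arrays, Kdr on 4, and Pecam1, Stab2, Tek and Vwf on none, with a summed level of 0.244 to 0.388. The sums rest on different probes and are compared only between times. They count an unmeasured marker at no less than the dimmest passing signal of its array. That limit differed between arrays, from log2 −4.90 at 30 min to −5.95 at 60 min, and it enters the small endothelial sum. Neither the leukocyte nor the endothelial sum was highest on the 45 or the 60 min array, and their part in the results was not tested.

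Of the 10 genes, Cxcl1, Cxcl10, Cx3cl1 and Icam1 were measured on all 5 arrays and Cxcl2 on the last 3. Cxcl9, Cxcl12, Ccl2, Ccl20 and Vcam1 were measured on none. Cxcl10 and Icam1 were at least 2-fold above 0 min at both 45 and 60 min. So was Cxcl2, against a 0 min signal that was not well above background. Cxcl1 was lower at 15 min, higher at 30 min and lower again at 60 min. The plot of levels by array shows these courses.

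**Figure D1:**
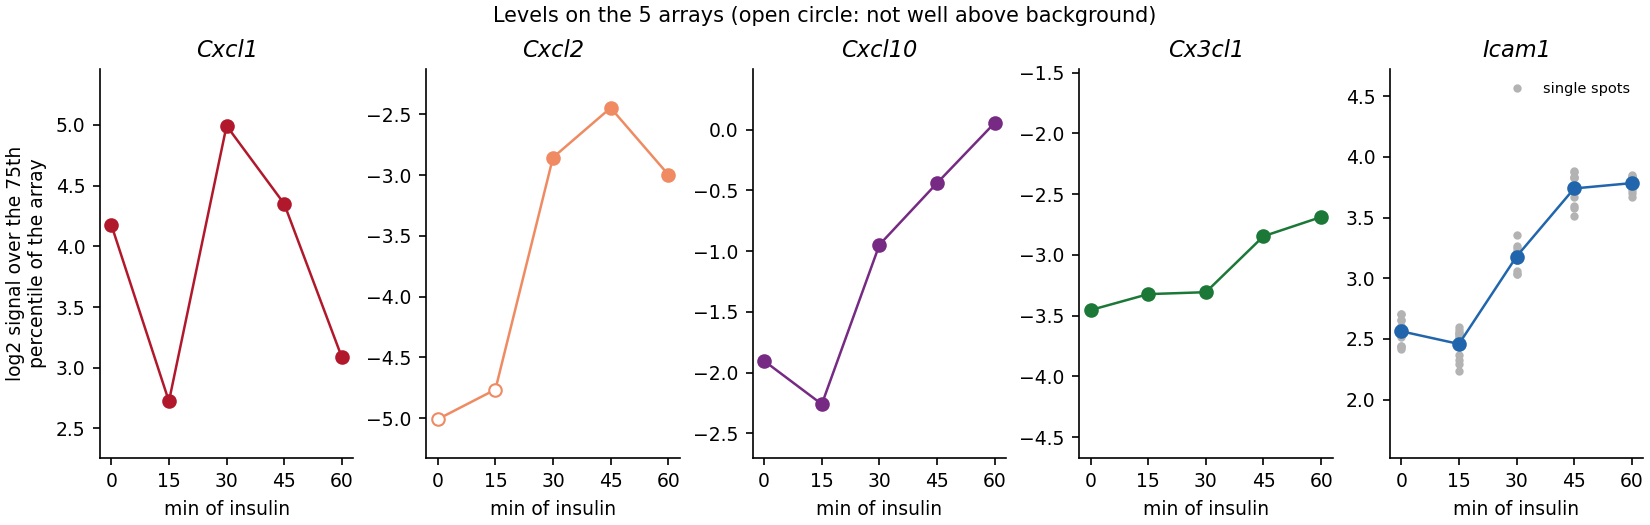
Log2 signal over the 75th percentile of the array (y axis) against min of insulin (x axis) for the 5 genes measured on at least 1 array, 1 array per time; every panel spans the same number of log2 units. Filled circles are well above background, open circles are not, and grey points in the Icam1 panel are its repeated spots. Cxcl1 moves down, up and down, Cxcl10 and Icam1 climb after 15 min, and Cxcl2 is dim until 30 min.

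The neutrophil chemokines Cxcl1 and Cxcl2 are neighbours. Their probes lie 13.2 kb apart on rn4, at chr14:18690468-18690527 and chr14:18677236-18677295, both on the minus strand. Cxcl1 had log2 levels of 4.18, 2.72, 4.99, 4.35 and 3.09 at 0, 15, 30, 45 and 60 min. It was bright on every array, with its lowest level at 15 min and its highest at 30 min. At 15 min it was 2.74-fold lower than at 0 min (log2 change −1.45), which ranked 21 from the lowest of 17269 genes measured on both arrays. At 30 min it was 1.76-fold higher (0.82, rank 64 from the highest of 17161), at 45 min the change was 0.17, and at 60 min it was 2.13-fold lower (−1.09, rank 97 from the lowest of 17833). Its direction at 60 min depends on the starting array: against 15 min in place of 0 min, the 60 min level was higher by 0.36.

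The widest move of Cxcl1 was between neighbouring arrays. From 15 to 30 min its level was 4.82-fold higher (log2 step 2.27), the third highest of 17049 genes measured on both arrays. Only 0.264% of those genes were at least 2-fold higher over that step. The step to 45 min was −0.64, and the step to 60 min was −1.26, or 2.40-fold lower, where 0.428% of genes were at least 2-fold lower. The Cxcl1 probe has 1 spot per array. On probes spotted 10 times, the spread between spots gave a change a technical standard deviation of 0.198 log2 units, which covers the array surface but not the cultures or the labelling. Each step and each change of Cxcl1 exceeded that value, apart from the change of 0.17 at 45 min.

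Cxcl2 had processed signals of 9.32 and 9.82 units at 0 and 15 min, neither of them well above background, and of 35.1, 46.8 and 60.1 units at 30, 45 and 60 min. Over the 75th percentile of each array, the 3 measured log2 levels were −2.85, −2.45 and −2.99. The brightest signal was thus that of 60 min, but on the scaled values the 45 min array was highest, since the 60 min array was brighter as a whole. Against its dim 0 min signal, Cxcl2 was 4.45-fold higher on the 30 min array. The ratio was 5.91-fold on the 45 min array and 4.04-fold on the 60 min array. Each of these bounds is set by the dim signal of the probe at 0 min and carries its noise, so it is not a strict lower limit. From 30 to 45 min the step was 0.41, and from 45 to 60 min it was −0.55, or 1.46-fold lower. With the background modelled by normexp, which adds an offset of 50 units and so compresses dim probes, the changes at 30, 45 and 60 min were 0.58, 0.82 and 0.22, all under 2-fold.

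Cxcl10 and Cxcl9 also lie side by side on chromosome 14, with probes 20.8 kb apart at chr14:17267994-17268053 and chr14:17288831-17288890 on rn4. Cxcl10 had log2 levels of −1.90, −2.26, −0.95, −0.44 and 0.06 at 0, 15, 30, 45 and 60 min. It was lowest at 15 min and higher on each later array. Relative to 0 min the change was −0.36 at 15 min, 0.96 at 30 min (1.94-fold, rank 47 of 17161), 1.46 at 45 min (2.76-fold, rank 18 of 17242) and 1.96 at 60 min (3.89-fold, rank 11 of 17833). The largest step was from 15 to 30 min, at 2.48-fold (1.31, rank 26 of 17049), and the next 2 steps were 0.51 and 0.50. The alternative settings gave 1.42 to 2.32 at 60 min. The lower level at 15 min did not hold in all of them. With normexp fitted to all spots it was higher there by 0.65, where 5 spots far below their local background had distorted the fit of that array.

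Cxcl9 had signals of 17.4, 16.3, 10.7, 6.89 and 12.9 units at the 5 times in order, none of them called well above background. Among all spots with a signal of 15 to 25 units, 57.8% to 78.8% per array passed that call. With both ends of each comparison below that call, no change is given for Cxcl9, and its course cannot be set beside that of its neighbour Cxcl10.

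Cx3cl1 had log2 levels of −3.45, −3.32, −3.31, −2.85 and −2.69 at 0, 15, 30, 45 and 60 min on its brighter probe (chr19:10667029-10667088 on rn4). The first 3 arrays lay within 0.15 of each other and the last 2 were higher. The changes were 0.13, 0.15, 0.61 (1.52-fold) and 0.77 (1.70-fold). The first 2 lie under the technical standard deviation of 0.254 for dim probes and the last 2 above it. The second probe, 662 bases away, gave signals of 7.99 to 12.8 units and was not well above background on any array, so the course rests on 1 spot per array. Under normexp the change at 60 min turned to −0.14.

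The other secreted chemokines gave no measurable signal. Ccl2, spotted 10 times, averaged −2.25 to −0.016 units over the 5 arrays, and Ccl20 gave −1.32 to 3.15 units. The 2 probes of Cxcl12 gave −1.76 to 0.587 and −3.43 to 1.75 units. The dimmest spots that passed the call had 6.83 to 8.51 units, depending on the array. Ccl2 and Cxcl12 stayed below that on every array, and Ccl20 did too. A level under this limit was not detectable on these arrays, which does not show that the transcript is absent.

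**Figure D2:**
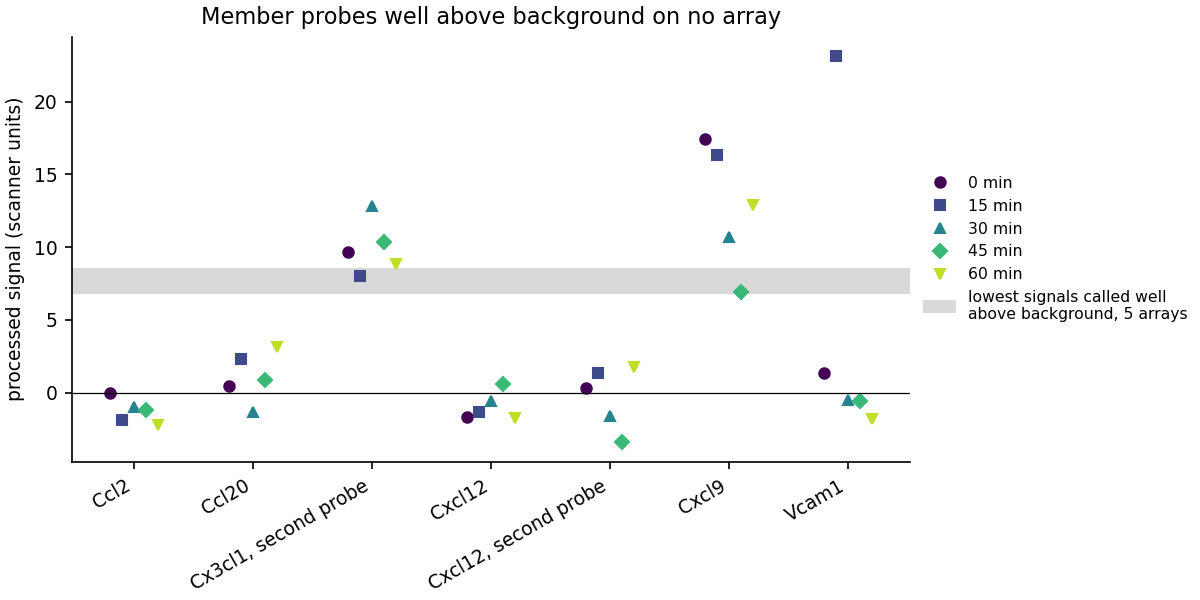
Processed signal in scanner units (y axis) of each probe that was well above background on no array (x axis), with 1 symbol per time from 0 to 60 min. The grey band spans the lowest signals called well above background on the 5 arrays; Ccl2, Ccl20 and Cxcl12 lie below it, Cxcl9 and the second Cx3cl1 probe lie in or above it, and the Vcam1 spot of 15 min reached 23.1 units.

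Icam1, the ligand of the leukocyte integrin LFA-1, was measured most closely, because its probe (chr8:20051730-20051789 on rn4) is spotted 10 times on each array. Its log2 levels were 2.56, 2.46, 3.18, 3.74 and 3.78 at 0, 15, 30, 45 and 60 min. The standard deviations between spots were 0.12, 0.13, 0.11, 0.14 and 0.07 (n = 10 spots, 9 at 60 min), and spots are technical repeats within an array. The spots of 15 min overlapped those of 0 min. Those of 30, 45 and 60 min all lay above every spot of 0 min. The changes were −0.10, 0.62 (1.53-fold), 1.18 (2.26-fold, rank 36 of 17242) and 1.22 (2.33-fold, rank 65 of 17833). The 60 and 45 min spots overlapped, with a mean difference of 0.05 and a technical standard error of 0.05. The higher level was thus reached between 15 and 45 min, in steps of 0.72 and 0.56, on arrays of the same slide. Every setting tried gave 1.13 to 1.28 at 45 min and 1.18 to 1.32 at 60 min.

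Vcam1, the ligand of the integrin VLA-4, was well above background on no array, so it has no measurable change to set beside that of Icam1. Its spot gave 1.32, 23.1, −0.505, −0.610 and −1.81 units at 0, 15, 30, 45 and 60 min. The 15 min spot stands apart from the other 4, but it did not pass the call either, and no second probe is available to check it.

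The 2-fold calls of the chosen genes were set beside those over all genes. At 15 min, 0 genes were higher and 1 was lower (Cxcl1), where 0.965% and 1.43% of 18553 genes were called when bounds are counted. At 30 min, 1 was higher (Cxcl2) and 0 lower, against 1.04% and 1.16% of 18444. At 45 min, 3 were higher (Cxcl2, Cxcl10 and Icam1) and 0 lower, against 1.32% and 1.54% of 18582. At 60 min the same 3 genes were higher and 1 was lower (Cxcl1), against 2.04% and 1.84% of 19597. These counts are of the 4 or 5 genes with a measurable change and carry no test. Cxcl2 passed the background call only on arrays where it was high, so its direction follows from the filter. Without it, 0 genes were higher at 30 min and 2 at each of 45 and 60 min. Of all genes measured on both arrays, 0.233%, 0.325% and 0.656% were higher at these times. The median change over all genes measured on both arrays was 0.02 to 0.03 at each time. The standard deviation of the changes between those genes was 0.227, 0.237, 0.251 and 0.343 at 15, 30, 45 and 60 min.

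**Figure D3:**
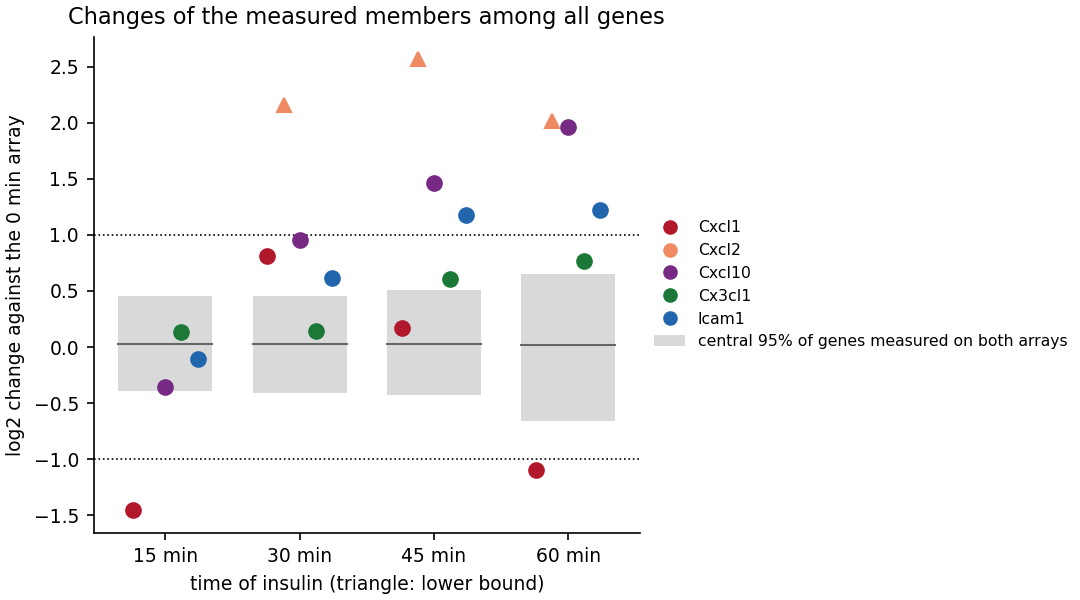
Log2 change against the 0 min array (y axis) at each time (x axis) for the 5 measured genes. Circles were measured on both arrays. Triangles, named lower bounds in the plot, are ratios to a 0 min signal that was not well above background. Dotted lines mark 2-fold, and the grey bars and lines give the central 95% and the median of all genes measured on both arrays. At 45 and 60 min Cxcl2, Cxcl10 and Icam1 lie above the upper dotted line, and at 15 and 60 min Cxcl1 lies below the lower one.

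A slope on time over the 5 arrays was tested with limma over 20510 genes. A straight line describes a steady course and is a poor description of one that goes down, up and down, as that of Cxcl1. None of the 5 measured genes passed a 5% false discovery rate, and neither did any other gene tested (0%, smallest adjusted p 0.376). At an unadjusted p under 0.05, limma called 1103 genes rising (5.38%) and 687 falling (3.35%). Cxcl10 had a slope of 2.30 ± 0.399 log2 units per hour (SE), with an unadjusted limma p of 0.0017 and an adjusted p of 0.490. For Icam1 the slope was 1.49 ± 0.262 (limma p 0.0018, adjusted p 0.490), for Cx3cl1 0.80 ± 0.164 (limma p 0.0036, adjusted p 0.490) and for Cxcl2 2.45 ± 0.685 (limma p 0.0139, adjusted p 0.504). Cxcl2 entered the fit only through the 3 later arrays on which it was high, so its rising direction follows in part from the filter. In the fit, levels below log2 −4.90 were raised to that value, which replaced its 0 min level of −5.01. Cxcl1, which moved both ways, had a slope of −0.22 ± 1.02 with an adjusted limma p of 0.954. The p-values measure the scatter of single arrays around a line. Without the 60 min array, which has its own slide, the slopes were 2.28 for Cxcl10, 1.70 for Icam1, 0.74 for Cx3cl1, 3.71 for Cxcl2 and 1.11 for Cxcl1, and limma again called 0 genes (1742 at an unadjusted p under 0.05).

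The genes whose courses lay nearest were found by the root mean square difference in log2 change over the 4 later times, among 8779 genes with a symbol measured on all 5 arrays. All these changes share the 0 min array. Nearest to Icam1 were Tnfrsf12a, the receptor of the cytokine TWEAK (difference 0.15), Irf1, a transcription factor of the interferon response (0.17), and Ccnl1, which encodes cyclin L1 (0.21). Nearest to Cxcl10 were Rnd1 (0.30), Lcn2, an acute-phase protein that binds bacterial siderophores (0.37), and Ddah2, an enzyme of the dimethylarginine-hydrolase family (0.40). Rnd1 had changes of −0.44, 0.95, 2.06 and 2.04 at 15, 30, 45 and 60 min, and its second probe gave −0.55, 0.95, 2.05 and 2.32. No gene came as close to Cxcl1. The 3 smallest differences were those of Socs3, a feedback inhibitor of cytokine receptors (0.57), Cyp7a1, the rate-limiting enzyme of bile acid synthesis (0.58), and Ifrd1 (0.63). Ifrd1 had changes of −0.41, 0.16, 0.08 and −0.85 on the probe used but −0.28, −0.34, −0.39 and −0.05 on its second probe, which lacks the higher level at 30 min. Socs3 was −0.57, 0.33, −0.04 and −0.59 relative to 0 min, the same signs as Cxcl1 at 15, 30 and 60 min with smaller changes.

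**Figure D4:**
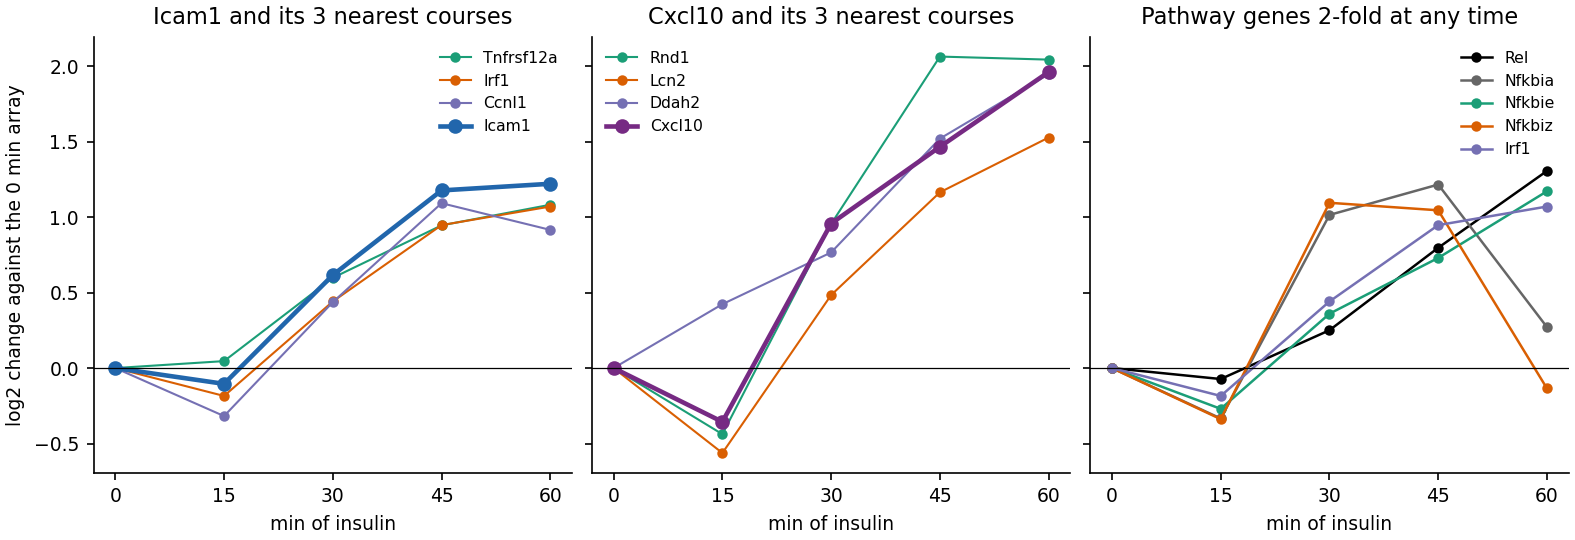
Log2 change against the 0 min array (y axis) by min of insulin (x axis), with 1 array per time, for Icam1 and its 3 nearest genes (left), Cxcl10 and its 3 nearest genes (middle), and the NF-kB and interferon pathway genes that were at least 2-fold from 0 min at any time (right). On the probes plotted, all genes except Ddah2 and Tnfrsf12a lie below 0 at 15 min, and every gene lies above 0 at 30 and 45 min. At 15 min the second probe of Nfkbia gave 0.54 and that of Tnfrsf12a −0.01. The genes were picked for a near course or a 2-fold change, so likeness among them is partly built in.

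Other genes of the pathway were taken from 6 lists. Among all genes measured on both arrays, 0.11%, 0.233%, 0.325% and 0.656% were at least 2-fold higher at 15, 30, 45 and 60 min, and 0.278%, 0.21%, 0.267% and 0.684% were at least 2-fold lower. A count of 0 in a short list is near these shares and says nothing particular about the list. Among 25 other chemokines, 24 were on the array and 8 were measured on at least 1 array. Ccl24, Ccl27, Ccl28, Cxcl11 and Cxcl17 were measured on all 5, and 0 of these 5 reached 2-fold at any time. Their median changes were 0.11, 0.17, 0.20 and −0.34 at 15, 30, 45 and 60 min. Cxcl11, the third ligand of Cxcr3, had changes of 0.01, 0.07, 0.20 and 0.14, against 1.96 at 60 min for Cxcl10. Cxcl3, which also acts on Cxcr2, passed the background call on 2 arrays, those of 30 and 60 min. Its bound at 30 min was 1.27-fold higher than 0 min. At 60 min its log2 level of −4.26 lay below the dim 0 min level of −4.08, so no bound was given. Ppbp passed the call on 2 arrays, those of 15 and 60 min, with bounds of 2.68-fold and 3.40-fold higher than 0 min. Its 0 min signal was not well above background, so these directions follow from the filter.

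Of 22 chemokine receptors, 19 were on the array, and Ackr2, Ccr7 and Cx3cr1 were measured on all 5 arrays, 0 of them 2-fold higher or lower at any time. Cx3cr1, the receptor of Cx3cl1, had changes of −0.03, −0.01, −0.23 and −0.07. A further 3 receptors passed the background call on 1 array each: Ccr3 at 0 min, Cxcr3 at 30 min and Ccr9 at 60 min. Their bounds against 0 min were 2.49-fold higher for Cxcr3 at 30 min and 3.05-fold higher for Ccr9 at 60 min. For Ccr3 they were 2.64-fold to 5.48-fold lower over the 4 later times. Each receptor passed only on the array where it was high, so the directions follow from the filter. Of 21 other adhesion molecules and integrins, 8 were measured, all on every array, and 0 were 2-fold higher or lower at any time. Itgb2, the beta chain of the integrins that bind Icam1, had log2 levels of −0.14, −0.31, −0.29, 0.09 and −0.30 in order of time. The medians of these 8 genes were −0.13, −0.10, −0.07 and 0.10, against 0.03, 0.02, 0.03 and 0.02 over all genes.

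The list of NF-kB pathway genes holds subunits, IkB proteins, kinases and feedback regulators. Of its 18 genes, 13 were found on the array, without Relb, Bcl3, Tnfaip3, Tnip1 and Traf1. All 13 were measured on every array, and 2 of them were at least 2-fold higher at each of 30, 45 and 60 min, where 0.233%, 0.325% and 0.656% of all genes were. The 2 were Nfkbia and Nfkbiz at 30 and 45 min, and Rel and Nfkbie at 60 min. In that list 0 were lower. Its medians were −0.07, 0.19, 0.34 and 0.27 at 15, 30, 45 and 60 min. Nfkbiz, an atypical IkB protein that works in the nucleus, was higher than at 0 min by 2.14-fold on the 30 min array and 2.06-fold on the 45 min array, with a change of −0.14 at 60 min. Nfkbia, which encodes IkB-alpha, had changes of −0.33, 1.01, 1.22 and 0.27 on its brighter probe but 0.54, 1.04, 0.18 and −1.20 on the other, so its probes differ at all times but 30 min. Rel, an NF-kB subunit, was 2.47-fold higher at 60 min, and Nfkbie, another IkB protein, was 2.25-fold higher.

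Of 24 interferon pathway genes, 17 were measured on at least 1 array, and Irf1 alone of those measured on both arrays reached 2-fold, at 60 min (2.10-fold), where 0.656% of all genes were 2-fold higher. Its course of −0.18, 0.44, 0.95 and 1.07 ran close to that of Icam1. The medians of the interferon list were 0.06, −0.07, 0.04 and 0.04. Among 25 inflammatory cytokines and receptors, 12 were measured and 0 reached 2-fold, where 0.656% or fewer of all genes were 2-fold higher and 0.684% or fewer were lower. Their medians were −0.04, −0.02, 0.05 and 0.19.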

How the data were processed

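RNA of 5 samples of Fao cells, grouped by the minutes of insulin in their labels, was measured on 1-colour Agilent arrays from 700 ng of total RNA labelled with Cy3, per the labels' protocols. The deposited intensity is a processed signal made with Agilent Feature Extraction 9.5.3.1, per the file headers, with the background subtracted, and it can be negative. Outlier flags and the call of well above background, a 0 or 1 flag, are also as deposited. A deposited series matrix gives log2 values for 19746 non-control probes, with its making not given in the sources used here. Set against the scanner files, it follows the log2 scaled signal centred per probe (correlation 0.9994 to 0.9999 across probes, which are not independent replicates; column medians 0). All of its 19746 probes were well above background on all 5 arrays, but the rule that picked them is not given.

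From the intensity, control spots and 100 to 163 outlier spots per array were left out and no spot was saturated. Signals were divided by the 75th percentile of their array, repeated spots averaged, and log2 taken. Of 43379 non-control spots, 22069 to 24489 per array were well above background, which limits how many genes could be compared. The precision is limited by having 1 array per time. A gene was counted by its brightest probe. Where only 1 of 2 arrays was well above background, the change is a bound, taken against the dim signal itself or, if that was lower, against the dimmest signal called well above background on its array. Some brighter spots also failed the call, so a bound is not a strict lower limit. A bound that pointed away from the array that passed was dropped. Where neither was, no change was given. Called means at least 2-fold. The trend used limma 3.58.1 (R 4.3.3), with Benjamini-Hochberg adjustment over all genes. Other steps used numpy 2.4.6, pandas 2.3.3 and, for plots, matplotlib 3.10.9 in Python 3.11.15. The counting rule and the trend were tested on simulated data.

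Of 41012 probes, 10826 were named by accession and 8683 by symbol through a RefSeq table of assembly GRCr8, and 21503 kept the name in the files. Probe positions are those of the files on rn4, and promoters are from RefSeq on GRCr8. No genome was used, so exons were not assigned.

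The genes, the lists and the tests were chosen with earlier results of these data known. Named genes are the 10 chosen, up to 4 of each list with a 2-fold change measured on both arrays, and the 3 nearest courses of each chosen gene measured on all 5 arrays with a 2-fold change. The other chemokines, receptors and integrins named outside this rule were chosen after their values were seen. Alternatives were the background correction, the scaling, the filter on dim probes, the mean over probes, the series matrix, the starting array and leaving out each array.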

Additional observations from a re-analysis of the deposited data

How the results depend on the processing

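Every alternative gave 0 genes with a trend past the 5% false discovery rate in limma, with the smallest adjusted p among the 10 genes between 0.141 and 0.881. The count of genes 2-fold higher at 15 min was 1 with normexp (Cx3cl1) and 1 with no filter on dim probes (Vcam1). At 30 min it was 0 with normexp, with normexp refitted, with only probes well above background on all 5 arrays and with the series matrix, and 3 against the 15 min array. The loss at 30 min is that of Cxcl2, which normexp compresses by its offset and the other 2 settings do not hold. Those 2 settings overlap, since every probe of the series matrix was well above background on all 5 arrays. Lower genes numbered 1 at 45 min and 2 at 60 min with no filter, which adds Cxcl9, and 0 at 60 min against the 15 min array. Cxcl1 at 60 min turned to 0.36 against the 15 min array. Its slope of −0.22 log2 units per hour turned to 0.024 with normexp but was −0.19 with normexp refitted. Over the fits that leave out 1 array each, that slope ran from −0.91 to 1.11, turning to 0.18 without 0 min and 1.11 without 60 min. With normexp the slope of Cxcl2 was −0.0061, but it was 0.32 with normexp refitted. That of Cx3cl1 was −0.032, or −0.051 refitted. Beyond the offset the cause was not tested. The refitted normexp was chosen after seeing the data, because 5 spots more than 100 units below their local background had moved the fitted background of the 15 min array to −215.9 units, against −8.93 without them. No paired analysis was possible because each time has 1 array and the labels carry no replicate numbers. Icam1 and Cxcl10 kept their direction and stayed past 2-fold at 45 and 60 min in every setting.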
